A study of Mus musculus with 5 samples.

Results

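The actin, myosin and tubulin cytoskeleton genes described here were 99 of the 8251 genes that carried a single gene symbol on an Affymetrix MG-U74Av2 array, a chip of short oligonucleotide probe sets for mouse transcripts. They were chosen by the start of their symbol (actins, Arp2/3 subunits, myosins, tropomyosins, tubulins, cofilins, capping proteins, profilins, thymosins, coronins, ezrin, moesin and radixin, vimentin, plastins, gelsolin, filamins and the WAS family). The rule uses no measured value, but it was set with earlier results of these data known. A symbol is a blunt rule: 6 of the 99 share only letters with the cytoskeleton (Plscr1, Plscr2, Tpmt, Cort, Corin and Tub) and are described apart. RNA came from mouse peritoneal macrophages on 5 arrays in 3 groups, and the study asked how ethanol alters the genes that poly IC induces. The naive group was 1 array of untreated material, for which the labels give no sex, age, strain or pool. The poly IC group was 2 arrays, each of a pool of female mice of the C57Bl/6 x C3H F1 cross, 12 weeks of age, given polyinosinic polycytidylic acid (poly IC), an artificial RNA duplex used to mimic infection by a virus. Its dose was 0.1 mg per mouse for pool 2, and none is stated for pool 1. The poly IC plus ethanol group, called the ethanol group below, was 2 arrays of pools of the same cross, sex and age, given 0.1 mg poly IC per mouse and 6 g/kg ethanol by mouth. No group received ethanol without poly IC, so an effect of ethanol could be measured only on top of poly IC. The sources used here do not give the time of harvest, how poly IC was given, or how many mice made up a pool.

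Actin monomers assemble into filaments that are nucleated by the Arp2/3 complex, which WAS-family proteins switch on, and are capped, cut and recycled by capping protein, gelsolin, cofilin, coronins and profilin. Myosins pull on or walk along these filaments, and tropomyosins coat them. Tubulins form the microtubules on which organelles travel. In macrophages this machinery drives spreading, migration, ruffling and the engulfment of particles.

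Promoters of 4 genes are printed as examples of members that behaved differently: Actg1 was called in no comparison, Tpm1 and Coro1c fell with poly IC and were higher again with ethanol, and Myo10 rose. Each is the 250 bases before a RefSeq transcription start, 5′ to 3′ on the gene's strand, from assembly GRCm38.p6. Actg1 lies at chr11:120348496-120348745 on the minus strand, and Tpm1 at chr9:67049214-67049463 on the minus strand. Coro1c lies at chr5:113908707-113908956 on the minus strand, and Myo10 at chr15:25622300-25622549 on the plus strand, where the more upstream of its starts is shown. Capitals mark a CArG box (the site of serum response factor) in Actg1, CArG boxes with at most 1 mismatch in Tpm1, and GGGCGG (the GC box), searched without overlap, in Coro1c and Myo10.
Actg1: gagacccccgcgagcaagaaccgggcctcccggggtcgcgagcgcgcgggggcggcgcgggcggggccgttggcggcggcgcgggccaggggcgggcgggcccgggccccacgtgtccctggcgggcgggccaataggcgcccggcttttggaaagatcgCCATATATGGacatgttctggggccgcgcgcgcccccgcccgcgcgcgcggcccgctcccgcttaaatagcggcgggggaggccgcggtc
Tpm1: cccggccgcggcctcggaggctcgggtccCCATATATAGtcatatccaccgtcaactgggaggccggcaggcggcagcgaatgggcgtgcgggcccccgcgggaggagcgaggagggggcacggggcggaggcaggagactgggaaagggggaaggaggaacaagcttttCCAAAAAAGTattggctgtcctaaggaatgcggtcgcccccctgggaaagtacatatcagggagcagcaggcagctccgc
Coro1c: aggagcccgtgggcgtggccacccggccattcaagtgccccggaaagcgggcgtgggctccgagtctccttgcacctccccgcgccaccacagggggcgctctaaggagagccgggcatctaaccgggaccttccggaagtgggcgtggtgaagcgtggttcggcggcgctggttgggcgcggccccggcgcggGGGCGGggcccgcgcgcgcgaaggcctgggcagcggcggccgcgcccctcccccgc
Myo10: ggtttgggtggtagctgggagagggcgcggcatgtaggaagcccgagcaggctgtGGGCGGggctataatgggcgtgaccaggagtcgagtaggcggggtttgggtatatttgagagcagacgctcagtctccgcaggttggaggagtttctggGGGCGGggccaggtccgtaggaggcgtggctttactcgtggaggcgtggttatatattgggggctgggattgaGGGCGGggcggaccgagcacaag

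Counted back from the start, the box of Actg1 begins at base -90, the near-matches of Tpm1 at -221 and -80, GGGCGG of Coro1c at -56, and the marked ones of Myo10 at -195, -96 and -23. A further GGGCGG of Myo10 overlaps the end of the one at -23 and is not marked. The motifs were searched on both strands. Of the 65 members bright enough to test, 57 had such a window, with 72 windows in all since some genes have several starts. A CArG box was found in 2 of the 72 windows (Actg1 and Arpc4), which is 2.78% beside 1.47% of all 32851 windows of the same length. With 1 mismatch allowed, a search that includes the exact box, it was found in 20.8% of the members' windows and 18.6% of all windows. TTTC followed by any 2 bases and TTTC again, the core of the element through which interferon acts, was found in 1.39% of the members' windows (Washc3) and in 2.98% of all windows. GAGGAA, a core bound by the macrophage factor PU.1, was found in 16.7% of the members' windows and in 23.3% of all. GGGCGG was found in 59.7% of the members' windows and in 32.7% of all. TATAAA was found in 4.17% of the members' windows (Myh9, Tubb2a and the downstream start of Myo10, which is not the window printed) and in 12.4% of all. Of 20 members called in any comparison below, 19 had a window. Counted by gene over any of its windows, GGGCGG was found in 16 of these 19, GAGGAA in 6, the CArG box with 1 mismatch allowed in 5, TATAAA in 3, and neither the exact CArG box nor the interferon core in any. Over all 57 tested members with a window, the counts by gene were 37 for GGGCGG, 11 for GAGGAA and 13 for the CArG box with 1 mismatch allowed. They were 3 for TATAAA, 2 for the exact CArG box and 1 for the interferon core. Counts by gene are not comparable with the shares of windows given above. These matches describe letters and are no measurement of binding.

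All values below are signals, the brightness of a probe set on an array, which the submitters had scaled so that arrays can be compared. The median signal of an array lay between 769 and 902. Differences are in log2(signal + 250), which compresses the folds of dim genes, and levels of different probe sets were not compared. A gene was tested where its mean signal reached 552, which 65 of the 99 members did (58 of them brighter on every array than the brightest of 19 bacterial and yeast control probe sets). Just inside this limit were Actn3 at a mean of 567.5 and Myh14 at 599.5. Just outside were Coro2b at 544 and Myl6b at 542. A difference was called at an adjusted p under 0.05 in a limma fit over all 5443 genes that passed. Of the 34 members that did not pass, 15 were above the control level on no array: Myh1, Myh2, Myh3, Myh8 and Myh11, the light chains Myl2, Myl3, Myl9 and Myl10, Actn2, Capza3, Flna, Pfn2, Corin and Plscr2. Many of these are genes of muscle, while others are known from many cell types. The filamin A probe set read 172 in the naive array, 54.5 and 74.1 with poly IC, 133 and 319 with ethanol, and the vimentin set 173, then 338 and 541, then 621 and 592. The set for Myl6, the essential light chain of non-muscle myosin, read 444, then 156 and 153, then 120 and 225. How well these dim sets report their genes was not tested.

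The samples were labelled macrophages, and all 10 macrophage markers examined (Adgre1, Cd14, Cd68, Csf1r, Gata6, Icam2, Itgam, Lgals3, Lyz2 and Mertk) were above the control level on all 5 arrays. Their summed signal was 284709 in the naive array, 340217 and 373419 with poly IC, 355072 and 337821 with ethanol. Cd14, which rose with poly IC by 1.53 (adjusted p 5.37e-06), carried that increase: without it the sum was 237529 naive, 213805 and 225985 with poly IC, 234285 and 215518 with ethanol. With poly IC, 1 of the 10 was higher and 3 were lower, among them Gata6, the factor of resident peritoneal macrophages, which read 7218 naive, 1169 and 1531 with poly IC, 1851 and 2188 with ethanol, and fell by 2.23 (adjusted p 8.21e-05). Markers of other cells moved with the groups. The sum over 13 B cell markers was 244679 in the naive array, 84552 and 73449 with poly IC, 127080 and 128957 with ethanol. Of the 11 tested, 10 were lower with poly IC than naive, and 5 were higher with ethanol than with poly IC. The sum over 13 neutrophil markers was 12472 in the naive array, 134338 and 97529 with poly IC, 39657 and 34072 with ethanol. Of the 11 tested, 8 were higher with poly IC than naive, and 6 were lower with ethanol than with poly IC. Among the tested ones Mmp8, Ngp, Ly6g, Ltf and Cxcr2 passed the limit for testing through their poly IC arrays, while Elane and Mpo did not pass. These counts are therefore in part set by that limit. No marker was listed at 0, and the neutrophil genes Ly6g, Ngp and Cxcr2 read 87.2, 82.0 and 68.1 in the naive array, below the control level. Many cytoskeleton genes below are expressed by lymphocytes and neutrophils as well as by macrophages. The part of these shifts in each difference below was not tested, and fewer cells of a type cannot be told apart from less RNA per cell. Sums for striated muscle markers were 8266 naive, 11888 and 13072 with poly IC, 11575 and 13310 with ethanol. Sums for smooth muscle and fibroblasts were 7814, then 10777 and 8934, then 8533 and 12699. In the striated muscle list 1 of 5 tested genes was higher with poly IC (Actc1, 0.93). Of 5 erythroid genes 2 were tested, and both were higher with poly IC (Hba-a1 by 4.42). Hbb-b2, at 374 in the naive array, passed the limit through its treated arrays. Of the erythroid genes too dim to test, Slc4a1 read 712 naive, 281 and 171 with poly IC. Alas2 read 101, then 475 and 234, and Epb42 read 56, then 56 and 81. Of 5 tested T and NK cell genes 2 were higher and 2 lower with poly IC (Gzmb by 3.28 and Cd2 by -1.32), and 1 was higher and 1 lower with ethanol over poly IC. Gzmb, at 189 in the naive array, passed the limit through its treated arrays. Of 5 tested mast cell genes 1 was higher with poly IC (Hdc by 3.35) and lower with ethanol over poly IC. In the lists for smooth muscle and fibroblasts (4 of 10 tested) and for mesothelium (2 of 9) no gene was called, and of the platelet list none of 5 was bright enough to test. The signal for 18S ribosomal RNA was 66548 in poly IC pool 2 and between 5113 and 19415 on the other 4 arrays.

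**Figure D1:**
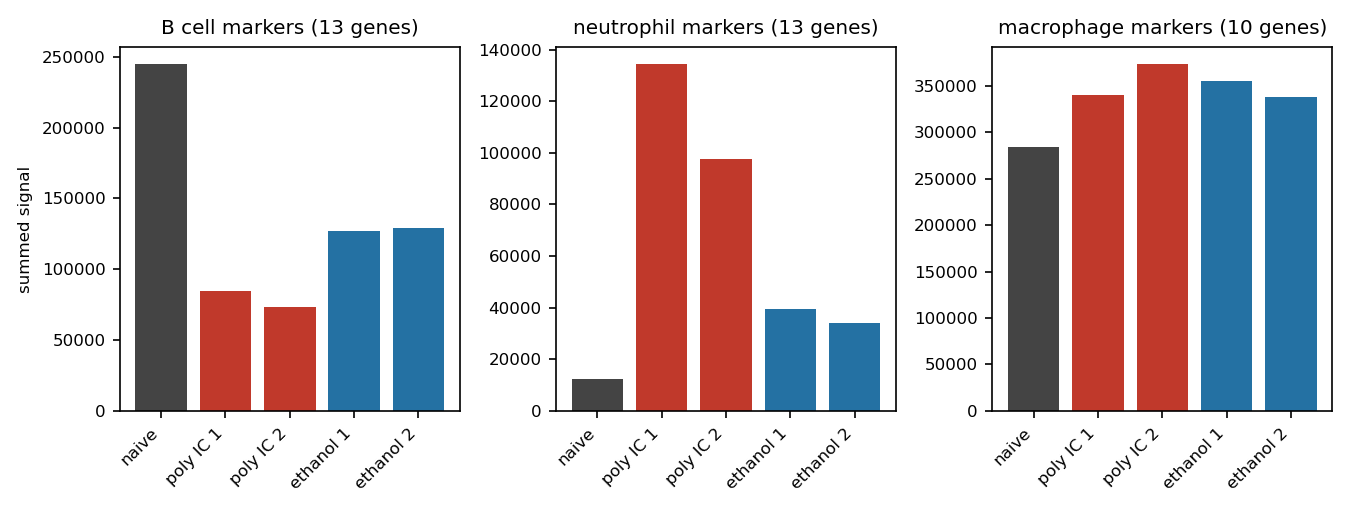
Summed signal (linear axis from 0) of the B cell, neutrophil and macrophage markers, 1 bar per array. B cell sums were 244679 in the naive array and at most 128957 in the treated arrays, neutrophil sums were highest with poly IC, and macrophage sums lay between 284709 and 373419, or between 213805 and 237529 without Cd14.

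Of the bright members, 6 that were called in no comparison are given first, each with the interval of its difference or its values. Actg1, cytoplasmic gamma-actin, read 77496 in the naive array, 82572 and 86288 with poly IC, 77545 and 82192 with ethanol. All 5 values lay close together. The poly IC minus naive difference was 0.12 (95% interval -0.11 to 0.36) and the ethanol minus poly IC difference -0.08 (-0.27 to 0.11), where the first turned to -0.064 after quantile normalization. Tmsb4x, thymosin beta-4, which holds actin monomers in reserve, read 86819 naive, 89381 and 88915 with poly IC, 90152 and 75318 with ethanol. Its differences were 0.04 (-0.23 to 0.31) and -0.11 (-0.34 to 0.11), the first -0.17 after quantile normalization and the second 0.016 without ethanol pool 2. Cfl1, cofilin, which severs filaments, read 35335, then 32629 and 40874, then 34156 and 32827. Poly IC pool 2 was the high one. Its differences were 0.05 (-0.30 to 0.39) and -0.12 (-0.40 to 0.16), and both changed sign after quantile normalization and without poly IC pool 2. Arpc2, a core subunit of Arp2/3, read 39986 naive, 46846 and 40143 with poly IC, 42793 and 35023 with ethanol. The groups overlapped, with differences of 0.12 (-0.23 to 0.46) and -0.16 (-0.45 to 0.12) whose signs turned after quantile normalization. Msn, moesin, which ties filaments to the plasma membrane, read 29411, then 29190 and 30228, then 28462 and 23146. Ethanol pool 2 was the low one, and the differences were 0.01 (-0.33 to 0.36) and -0.21 (-0.49 to 0.07), where the first was -0.39 after quantile normalization and -0.011 without poly IC pool 2. Actr3, the actin-related protein 3 of Arp2/3, read 53666, then 46211 and 48227, then 47731 and 50630, and was not called in any comparison.

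Beta-actin is read by control probe sets and by 2 sets named Actb, and only the latter were tested. The control probe sets for beta-actin that the array maker adds to every chip read 117179.7 naive, 122379 and 145216 with poly IC, 123350.3 and 124083 with ethanol at the 3′ part of the transcript. At the 5′ part they read 107317, then 106621 and 139418, then 109497 and 111806, and the ratio of 3′ to 5′ signal lay between 1.04 and 1.15. Of the 2 sets named Actb, one read 691 naive, 588 and 1049 with poly IC, 896 and 1354 with ethanol, and the other 756, then 734 and 1026, then 681 and 783. Actb was not called in any comparison on them. Pfn1, profilin 1, which feeds monomers to growing filaments, has a single set that read 707 naive, 1216 and 1587 with poly IC, 1529 and 2469 with ethanol. How well this dim set and those named Actb report their genes was not tested.

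**Figure D2:**
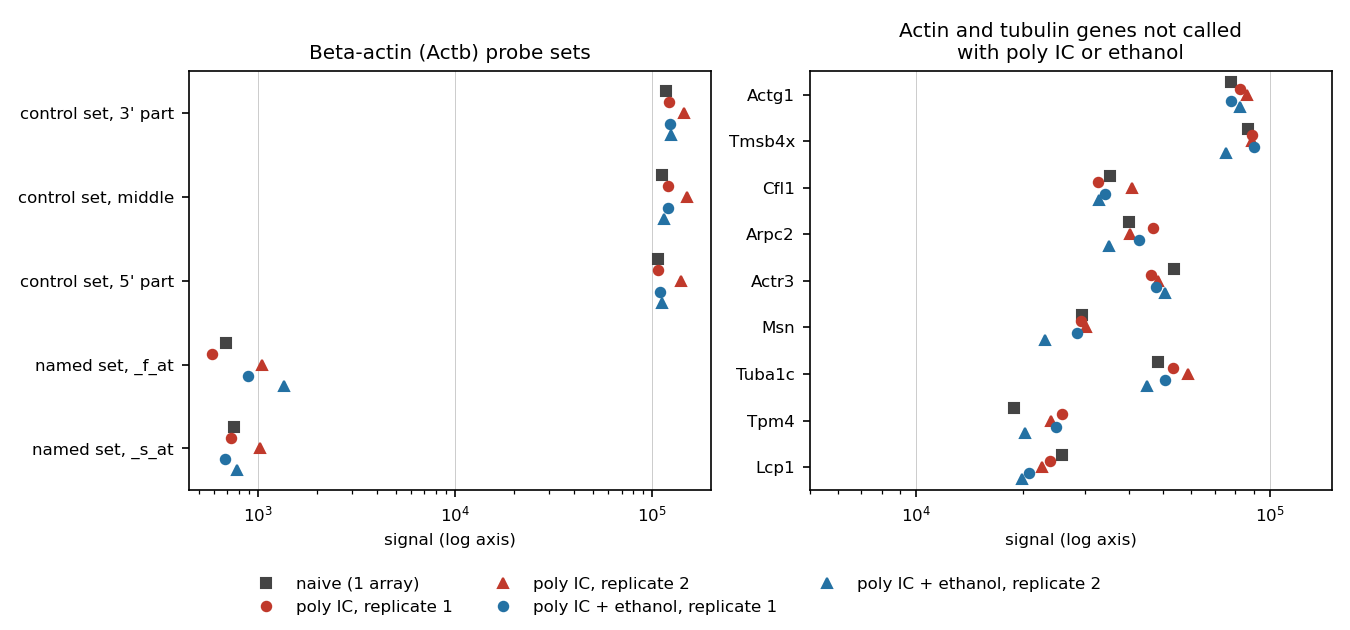
Signal on each array (log axis) for 5 beta-actin probe sets (left) and for 9 bright members not called with poly IC or with ethanol (right); squares are naive, circles pool 1 and triangles pool 2. Levels of different sets are not comparable. The control sets for beta-actin lie between 106621 and 150648 and the sets named Actb between 588 and 1354, and the 5 values of Actg1 lie between 77496 and 86288.

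Against the naive array, 13 of the 65 tested members were lower with poly IC and 3 were higher, where 20.8% and 12.1% of all 5443 genes were lower and higher. The 16 called are 24.6% of the members beside 32.8% of all genes, so the members were not called more often than other genes. At an unadjusted p under 0.05 there were 27. The median difference was -0.15 over the members and -0.16 over all genes, and 54 of 65 members lay within 2-fold. The 13 that fell were Coro1a, Coro1c, Was, Washc2, Myo1c, Myo1f, Myo7a, Myh9, Myl12b, Tpm1, Capzb, Tubb2a and Tubb5. The 3 that rose were Myo10, Tubb6 and Plscr1, the last of which is no cytoskeleton gene. Leaving out an ethanol pool did not change these differences, since those arrays enter here only through the spread. The count that rose was 5 with arrays centred on their median. That centring moved the median of all genes from -0.16 to 0.03 and the split of all called genes from 656 higher and 1132 lower to 842 and 742. The naive side is a single array, assumed to vary as the pools do, and p-values measure the spread between pools.

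**Figure D3:**
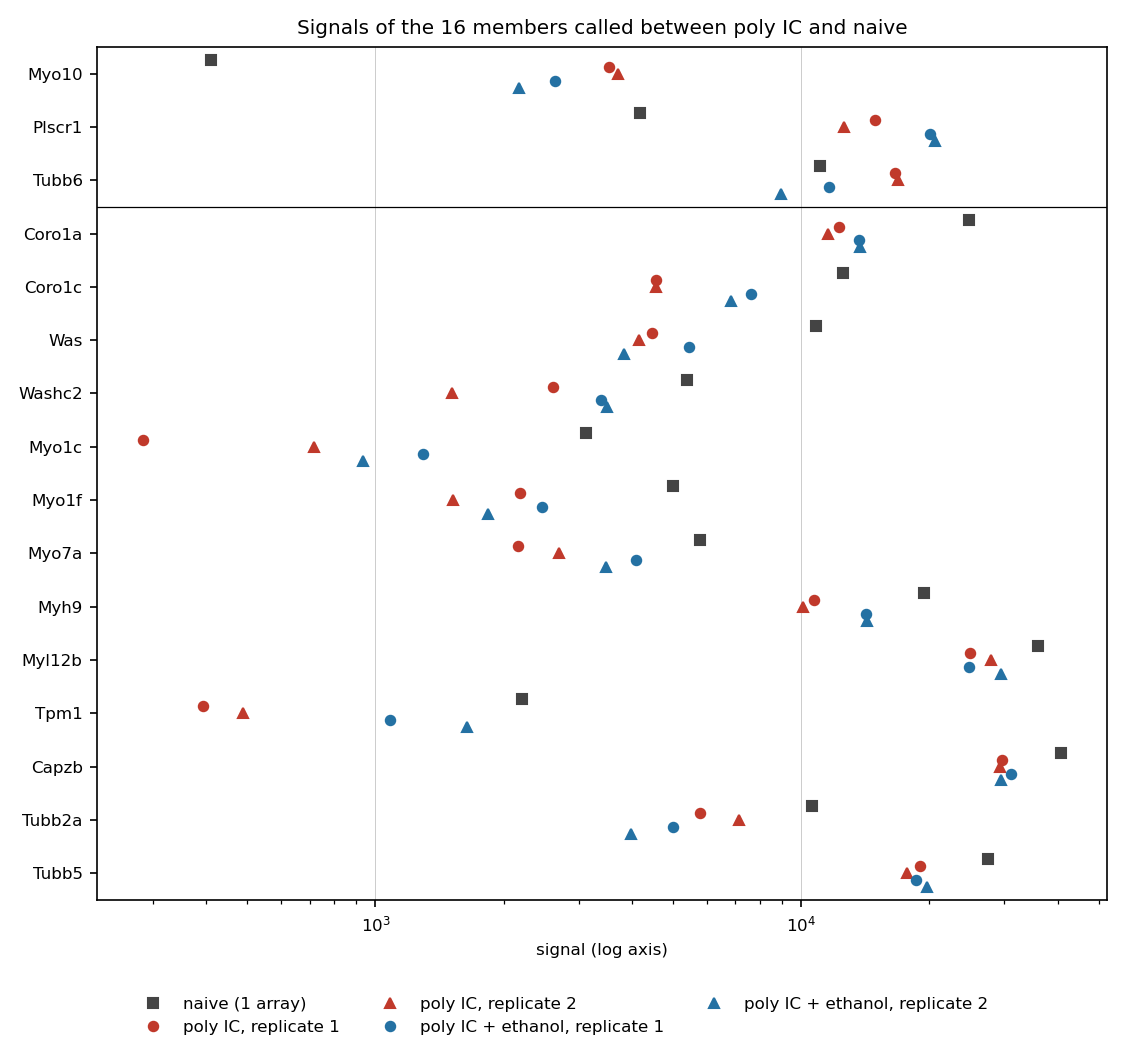
Signal on each array (log axis) of the 16 members called between poly IC and naive, those that rose above the line and those that fell below it; squares are naive, circles pool 1 and triangles pool 2. For each of the 13 that fell, the naive square lies to the right of all 4 treated arrays. The ethanol symbols of Coro1a, Coro1c, Myh9, Myo1c, Myo7a, Tpm1 and Washc2 lie between the naive and poly IC symbols.

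Among proteins that drive and unmake branched networks, the coronins, Was and the WASH complex made up 4 of the 13 falls. Coro1a, coronin 1A, the isoform of white blood cells, read 24783 naive, 12260 and 11572 with poly IC, 13639 and 13770 with ethanol. The naive array was the highest and the pools of each group lay close to each other. It fell with poly IC by 1.04 (SE 0.15, adjusted p 0.000638), which is 2.06-fold. Coro1c read 12558 naive, 4562 and 4557 with poly IC, 7612 and 6828 with ethanol, so that the ethanol pools lay between the other groups without overlap. Its poly IC fall was 1.41 (SE 0.18, adjusted p 0.000266), or 2.66-fold. Coro1b read 7653, then 5341 and 5309, then 5917 and 6420, and was not called. Was, the Wiskott-Aldrich protein that turns on Arp2/3 in blood cells, read 10844 naive, 4457 and 4161 with poly IC, 5460 and 3840 with ethanol. The ethanol pools lay on both sides of the poly IC pools. Was fell by 1.28 (SE 0.23, adjusted p 0.00198), or 2.43-fold. Washc2, a subunit of the WASH complex that activates Arp2/3 on endosomes, read 5383, then 2617 and 1517, then 3378 and 3501, and fell by 1.32 (SE 0.28, adjusted p 0.00507). Washc3 of the same complex read 1893, then 1484 and 1329, then 1540 and 1620, and was not called. The 6 tested subunits of Arp2/3 itself (Actr3, Arpc1a, Arpc2, Arpc4, Arpc5 and Arpc5l) were not called in any comparison. Arpc1a came from 4428 in the naive array to 2846 and 2856 with poly IC, 3776 and 3025 with ethanol. Arpc4 came from 9493 to 11919 and 11747, and then 11608 and 13522.

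Myosins moved in both directions. Myo10, an unconventional myosin that travels to the tips of filopodia, read 409.9 in the naive array, 3543 and 3704 with poly IC, 2642 and 2179 with ethanol. All 4 treated arrays lay far above the naive one. It rose by 2.55 (SE 0.23, adjusted p 2.23e-05), the largest change among the 65 members in this comparison. Myo1c, a membrane-bound class I myosin, read 3121 naive, 285 and 716 with poly IC, 1290 and 936 with ethanol, and fell by 2.23 (SE 0.39, adjusted p 0.00187). The poly IC pool 1 value lay below the brightest control set of its array (375.7), so its size there is uncertain, and the difference was -1.47 with an offset of 1000. The poly IC mean of Myo1c and the naive mean of Myo10 lay below the limit for testing, so both passed through their other groups. Myo1f, a class I myosin of blood cells, read 4993, then 2191 and 1520, then 2468 and 1843, and fell by 1.34 (SE 0.27, adjusted p 0.00389). Myo7a, a class VII myosin, read 5774, then 2157 and 2699, then 4090 and 3470, and fell by 1.18 (SE 0.22, adjusted p 0.00271). The other 4 tested unconventional myosins, Myo5a, Myo5b, Myo6 and Myo9a, were not called in any comparison.

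Of the contractile myosin II set, 21 genes were on the array and 4 were bright enough to test. Myh9, the heavy chain of non-muscle myosin IIA, read 19441 naive, 10732 and 10114 with poly IC, 14224 and 14272 with ethanol. The naive array was the highest and the ethanol pools lay between. It fell with poly IC by 0.88 (SE 0.16, adjusted p 0.00187), or 1.85-fold, while its second probe set, of a kind that can match several genes of a family, read 7321, then 6256 and 4775, then 6626 and 5278, a difference of -0.40. Myl12b, a regulatory light chain, read 36074, then 24926 and 27897, then 24800 and 29513, and fell by 0.45 (SE 0.15, adjusted p 0.0482). That call was lost without poly IC pool 1 (-0.37, adjusted p 0.186) and without poly IC pool 2 (-0.53, adjusted p 0.0694). It was -0.26 (adjusted p 0.279) with median-centred arrays and -0.85 (adjusted p 0.00313) after quantile normalization. The other tested members, Myh14 and Myl4, were not called.

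Of the 3 tested tropomyosins, which coat filaments and set which myosins can reach them, 1 was called. Tpm1 read 2204 naive, 393 and 487 with poly IC, 1082 and 1644 with ethanol. No groups overlapped, and the poly IC pools were the lowest. It fell with poly IC by 1.83 (SE 0.33, adjusted p 0.00227). Its mean with poly IC, 440, lay below the limit for testing, so it passed through its values in the other groups, and pool 1 lay just above the brightest control of its array (375.7). The size of the fall is therefore uncertain, and it was 1.15 (a difference of -1.15) with an offset of 1000. Tpm4, the short tropomyosin of non-muscle cells, read 18871, then 25793 and 24154, then 24920 and 20366. Its poly IC difference of 0.40 (adjusted p 0.0849) was not called, but was called with median-centred arrays (0.59). Leaving out an ethanol pool did not change that difference, since those arrays enter it only through the spread. The ethanol minus poly IC difference of Tpm4 was -0.15. Tpm3 read 3936, then 4002 and 5950, then 5020 and 6731, and was not called.

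Among capping, severing and crosslinking proteins, Capzb was the only one called with poly IC. This beta subunit of the capping protein that closes filament ends read 40770.1 naive, 29682 and 29269 with poly IC, 31034 and 29444 with ethanol. It fell by 0.46 (SE 0.13, adjusted p 0.0193), or 1.38-fold. The call was lost without poly IC pool 1 (adjusted p 0.0605), without poly IC pool 2 (0.0739), and in the mean over its probe sets (-0.36, adjusted p 0.076). It was -0.28 (adjusted p 0.201) with median-centred arrays and -0.84 (adjusted p 0.000508) after quantile normalization. A second Capzb set read 13866 naive, 12363 and 10764 with poly IC, 13967 and 14483 with ethanol. The alpha subunits Capza1 and Capza2 read 20868 and 11845 in the naive array, 22887 and 12746 in poly IC pool 1, and 20756 and 17935 in poly IC pool 2, and were not called. Capg, which caps filaments without cutting them, read 22806, then 16427 and 17552, then 20095 and 17901. Lcp1, L-plastin, the filament bundler of white blood cells, read 25840, then 23938 and 22697, then 20861 and 19990. Neither was called, nor were ezrin, moesin and radixin.

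Tubulins also moved in both directions. Tubb6, a class V beta-tubulin, read 11042 naive, 16568 and 16879 with poly IC, 11642 and 8942 with ethanol. The poly IC pools were the high ones, and the ethanol pools lay on both sides of the naive array. It rose with poly IC by 0.59 (SE 0.19, adjusted p 0.0357), a call lost without poly IC pool 1 (adjusted p 0.11), without poly IC pool 2 (0.134), with no filter (0.0595) and after quantile normalization (0.51, adjusted p 0.0537). Tubb5, the main beta-tubulin of blood cells, read 27420.0 naive, 19028 and 17685 with poly IC, 18635 and 19690.2 with ethanol. It fell by 0.57 (SE 0.14, adjusted p 0.0128), with a difference of -0.54 on its second probe set, and the call was lost without poly IC pool 2 (adjusted p 0.0759) and with median-centred arrays (-0.38, adjusted p 0.0932). After quantile normalization it was -0.88. Tubb2a read 10578 naive, 5790 and 7153 with poly IC, 4999 and 3987 with ethanol. It fell by 0.70 (SE 0.21, adjusted p 0.0313), a call lost without poly IC pool 1 (-0.55, adjusted p 0.179) and without poly IC pool 2 (-0.84, adjusted p 0.0515). Its second, dim set gave -0.13, and the mean over both -0.41 (adjusted p 0.285). Tubb2a was also not called with median-centred arrays (-0.51, adjusted p 0.134) or with no filter (0.0529). Tuba1c, an alpha-tubulin, read 48290 naive, 53430 and 58744 with poly IC, 50474 and 45017 with ethanol. It was not called, with differences of 0.21 for poly IC and -0.23 for ethanol, which were -0.23 and 0.027 after quantile normalization. Without ethanol pool 1 its ethanol difference was called at -0.31. Tuba1a had sets that differed in size of change. The brighter read 27898, then 23944 and 24795, then 22559 and 21341, and the other 19785, then 10161 and 10183, then 9450.2 and 13768. Tubulin genes are near copies of each other. Of the 65 probe sets used 10 are of the family kind, those of Tubb2a, Tubb3, Tubb6, Tuba1a, Tuba1c and Actn1 among them. The signal of single tubulin genes is therefore uncertain, and Tubb6 has a single set.

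With ethanol added to poly IC, 3 of the 65 members were higher and 1 was lower than with poly IC alone, where 6.03% and 4.98% of all genes were. The 4 calls are 6.15% of the members beside 11.0% of all genes, and 15 passed an unadjusted p under 0.05. The median difference was 0.04 over the members and 0.07 over all genes, and 62 of 65 lay within 2-fold. Over all genes the calls were 328 higher and 271 lower, and 206 and 285 with median-centred arrays, where 1 member was called higher. The arrays of the 2 groups did not overlap for 34 members, or in 55.2% of all genes. Tpm1 was higher by 1.21 (SE 0.27, adjusted p 0.0213), and by 0.70 with an offset of 1000. Coro1c was higher by 0.63 (SE 0.15, adjusted p 0.0243), or 1.55-fold. Tubb6 was lower by 0.70 (SE 0.15, adjusted p 0.0186), or 1.62-fold, on a family probe set. The last call was for Plscr1. All 4 calls were lost without poly IC pool 1 (Tpm1 1.11, adjusted p 0.107; Coro1c 0.63, 0.139; Tubb6 -0.71, 0.103) and without poly IC pool 2 (Tpm1 1.31, adjusted p 0.0856; Coro1c 0.63, 0.178; Tubb6 -0.69, 0.14). Tpm1 was also lost without ethanol pool 2 (0.95, adjusted p 0.0528) and with no filter (0.0764), and Coro1c with median-centred arrays (0.55, adjusted p 0.058). Without the trend of the variance prior none of the 4 was called. Without ethanol pool 1, 8 members were called higher and 5 lower, and without ethanol pool 2, 5 were higher.

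Several members that fell with poly IC had ethanol values between the poly IC and naive arrays without being called. Myh9 differed by 0.44 (95% interval 0.16 to 0.73, adjusted p 0.053) between ethanol and poly IC, and was called without ethanol pool 1 (adjusted p 0.0396) and after quantile normalization (0.47, adjusted p 0.0375). Myo7a differed by 0.59 (0.19 to 0.99, adjusted p 0.0648) and was called without ethanol pool 2 (0.70, adjusted p 0.0145). Washc2 differed by 0.71 (adjusted p 0.0755) and was called without poly IC pool 1 (1.06), without ethanol pool 1 (0.74) and without ethanol pool 2 (0.69). Myo1c differed by 0.91 (adjusted p 0.102) and was called without ethanol pool 2 (1.10, adjusted p 0.0177). Myo10, which had risen, differed by -0.55 (adjusted p 0.0924) and was called without ethanol pool 1 (-0.67, adjusted p 0.0297). Coro1a differed by 0.20 (adjusted p 0.354) and Was by 0.08 (adjusted p 0.831), the latter -0.16 without ethanol pool 1. Other members that fell did not lie nearer to naive with ethanol, or hardly so. Tubb2a was lower still, with a difference of -0.50 (95% interval -0.89 to -0.11, adjusted p 0.0981). Myo1f differed by 0.20 (adjusted p 0.623), Tubb5 by 0.06, Capzb by 0.04 and Myl12b by 0.04. Both comparisons use the poly IC arrays, so the values are given only side by side. Marker sums also differed between these groups. B cell sums were 84552 and 73449 with poly IC, 127080 and 128957 with ethanol. Neutrophil sums went the other way, at 134338 and 97529 with poly IC, 39657 and 34072 with ethanol. The part of either shift in these differences was not tested.

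**Figure D4:**
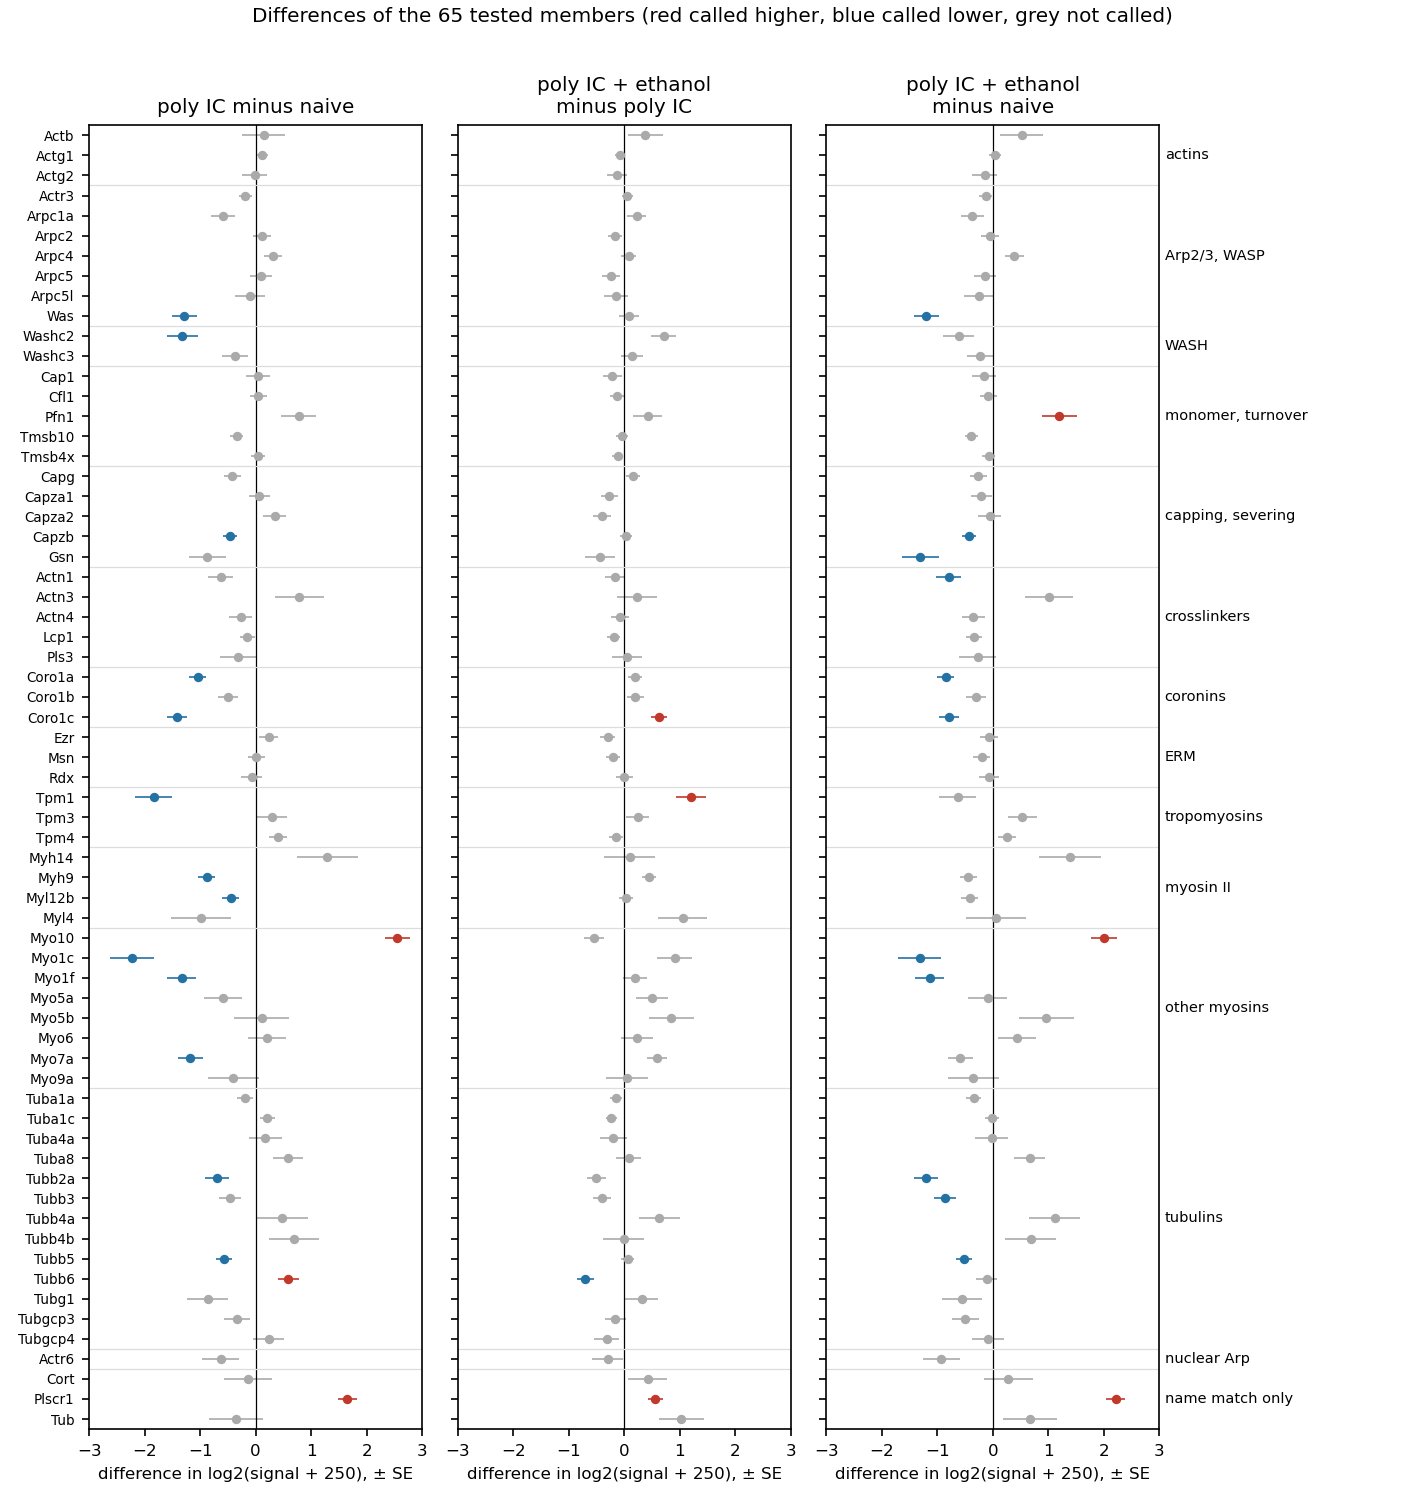
Differences in log2(signal + 250) with their standard errors for the 65 tested members, grouped by role, in the 3 comparisons; red points were called higher, blue points lower and grey points not called. With poly IC 13 are blue and 3 red, with ethanol over poly IC 1 is blue and 3 are red, and against naive the ethanol group has 11 blue and 3 red.

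Set against the naive array, the ethanol group had 11 members lower and 3 higher, where 8.52% and 8.69% of all genes were. The 14 called are 21.5% of members beside 17.2% of all genes, with 26 at an unadjusted p under 0.05 and a median of -0.16 beside -0.11. Over all genes the calls were 473 higher and 464 lower, and 502 and 282 with median-centred arrays, where 7 members were lower. Of the genes described above, the differences were -0.84 for Coro1a (adjusted p 0.00411), -0.78 for Coro1c (0.0153), -1.20 for Was (0.00528), -1.14 for Myo1f (0.0164) and -1.32 for Myo1c (0.0448). Myo1c was not called with no filter (adjusted p 0.131), with median-centred arrays (0.0849), after quantile normalization (0.0845), with an offset of 50 (0.0806) or without the trend of the variance prior (0.083). Myo1f was not called with no filter (0.0571) or without that trend (0.0576), nor was Coro1c without it (0.0575). Myo10 was higher by 2.01 (SE 0.23, adjusted p 0.000193), and by 1.27 with an offset of 1000. The differences of Tpm1 (-0.63, adjusted p 0.234), Myh9 (-0.44, 0.0821), Myo7a (-0.58, 0.103), Washc2 (-0.61, 0.169) and Tubb6 (-0.11, 0.722) were not called, and that of Tubb6 was 0.075 without ethanol pool 2. Myo7a was called without ethanol pool 1 (-0.70, adjusted p 0.0236). The count that rose was 8 without ethanol pool 1. In this comparison 4 members were called that the other comparisons had not called. Gsn, gelsolin, which severs and caps filaments, read 2375 naive, 1526 and 909 with poly IC, 939 and 699 with ethanol, with ethanol lower than naive (a difference of -1.31, SE 0.33, adjusted p 0.0233). Actn1, an alpha-actinin that crosslinks filaments, read 2851, then 1779 and 1735, then 1527 and 1558, with a difference of -0.79 (SE 0.22, adjusted p 0.0381), lost without poly IC pool 1 (adjusted p 0.0786) or 2 (0.0769). Tubb3, a beta-tubulin best known from neurons, read 4791, then 3360 and 3445, then 2614 and 2437, with a difference of -0.86 (SE 0.20, adjusted p 0.0153) on a family probe set. In the mean with its dimmer set it was -0.59 (adjusted p 0.234). Pfn1 was higher by 1.20 (SE 0.31, adjusted p 0.0265) on its single dim set, and by 0.80 with an offset of 1000. Pfn1 and Gsn were not called with no filter (adjusted p 0.0975 and 0.088) or without the trend (0.0623 and 0.0508). Actn1, read on a family probe set, was not called with no filter (0.104), with median-centred arrays (0.0722) or after quantile normalization (0.0614). Tubb2a differed by -1.20 (adjusted p 0.0038), Tubb5 by -0.51 (0.0377) and Capzb by -0.43 (0.046). In the mean over probe sets Tubb2a was -0.73 (adjusted p 0.104) and Capzb -0.20 (adjusted p 0.375), and neither was called. With median-centred arrays Tubb5 was -0.40 (adjusted p 0.125) and Capzb -0.32 (adjusted p 0.201), and neither was called. The Tubb5 call was lost without poly IC pool 1 (adjusted p 0.0687) or 2 (0.0669), and that of Capzb without poly IC pool 1 (0.0767), poly IC pool 2 (0.0753) or ethanol pool 2 (-0.39, 0.0522).

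Over the 65 members the naive array was above all 4 treated arrays in 32 and below all 4 in 12, beside 41.2% and 25.4% of all genes. By role, in poly IC against naive, calls went downward in the coronins (2 of 3 tested), the WASH complex (1 of 2), myosin II (2 of 4), unconventional myosins (3 of 8, with 1 upward), tropomyosins (1 of 3), tubulins and their gamma-tubulin ring partners (2 of 13, with 1 upward), capping and severing proteins (1 of 5) and Arp2/3 with its activators (1 of 7). No call was made among actins (3 tested), monomer-binding and turnover proteins (5), crosslinkers (5) and ezrin, moesin and radixin (3). Of all genes, 20.8% were lower and 12.1% higher in that comparison. The counts by role are small and were not compared with each other.

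The members that only share letters with the cytoskeleton gave 1 of the largest rises. Plscr1, a phospholipid scramblase that interferon is known to induce, read 4181 naive, 14862 and 12623 with poly IC, 20039 and 20637 with ethanol. The groups did not overlap and the ethanol pools were the highest. It was higher with poly IC by 1.65 (SE 0.17, adjusted p 5.91e-05), or 3.15-fold, and higher again with ethanol by 0.56 (SE 0.14, adjusted p 0.0292). The ethanol call was lost without poly IC pool 1 (0.68, adjusted p 0.0805) and without poly IC pool 2 (0.45, adjusted p 0.273). Against naive the ethanol difference was 2.22 (adjusted p 9.49e-06). It is 1 of the 16 poly IC calls and 1 of the 3 members called higher with ethanol.

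Other genes of these pathways were read from 2 lists outside the symbol rule. Of 28 tested adhesion-linked actin regulators, 4 were higher and 10 lower with poly IC (median -0.15), where 12.1% and 20.8% of all genes were. With ethanol over poly IC 4 were higher and 3 lower (median 0.02), where 6.03% and 4.98% of all genes were. Marcksl1 and Marcks, membrane proteins that bind actin and are acted on by protein kinase C, gave the largest rises of this list. Marcksl1 read 3185 naive, 52745 and 58045 with poly IC, 47679 and 37732 with ethanol, a poly IC difference of 4.02 (SE 0.16, adjusted p 7.3e-08). Marcks read 3160 naive, 27080.3 and 27074 with poly IC, 16851 and 12453 with ethanol. It rose with poly IC by 3.00 (SE 0.19, adjusted p 2.12e-06) and was lower with ethanol, by a difference of -0.89 (SE 0.16, adjusted p 0.00772). Pdlim1, which binds alpha-actinin, read 15468, then 7083 and 6092, then 14761 and 12192, and was higher with ethanol by 1.00 (SE 0.15, adjusted p 0.00414).

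Of 32 tested microtubule motors and binding proteins, 4 were higher and 7 lower with poly IC (median -0.37, beside -0.16 over all genes), against the same 12.1% and 20.8%. With ethanol over poly IC 3 were higher and 2 lower (median 0.04), against 6.03% and 4.98%. Map1lc3b, LC3B, a microtubule-associated protein better known on autophagosomes, read 12818 naive, 3209 and 3773 with poly IC, 6457 and 7386 with ethanol. Its differences were -1.81 with poly IC (adjusted p 9.05e-05) and 0.94 with ethanol (adjusted p 0.00634). Racgap1, which works at the spindle midzone of dividing cells, read 2190.0, then 384 and 517, then 1222 and 1148, with differences of -1.81 (adjusted p 0.0018) and 1.04 (adjusted p 0.0301). The poly IC values of Racgap1 lay below the limit for testing, so it passed through its other groups. Pool 1 lay just above the brightest control of its array (375.7), so the size of either difference is uncertain. Against naive, the ethanol group had 4 of 32 lower, where 8.52% of all genes were, among them the dynein light chain Dynll1 (-0.90, adjusted p 0.002) and the kinesin light chain Klc1 (-0.88, adjusted p 0.00794).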

How the data were processed

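The deposited values were intensities on a linear scale, with 1 signal for each probe set on each of 5 arrays. Per the labels, the authors made them with Microarray Suite 5.0, scaled each array globally to a target of 2500, and used Data Mining Tool 3.0. Global scaling hides a change in total RNA. Samples were grouped by title. Gene names came from the platform annotation. The array has 12488 probe sets with 66 controls, and of the rest 10833 had 1 symbol, 396 several and 1193 none listed. Symbols were updated by Entrez ID through RefSeq's GRCm38.p6 gene table (10817 found). Probe sets under a mean signal of 552, the 40th percentile of those with 1 symbol, were left out, and the brightest set of each gene was kept (28 members had several), which gave 5443 genes.

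Signals were analysed as log2(signal + 250) with limma 3.58.1 in R 4.3.3 (lmFit, eBayes with an intensity trend, 3 group means, 2 residual degrees of freedom and a median prior of 7.77). P-values were two-sided, with Benjamini-Hochberg adjustment across the 5443 genes. The script was tested on simulated data. The number of arrays limits the precision. Same-numbered pools of the 2 treated groups deviated together at a correlation of 0.041 over genes, so the numbers were not taken as pairs. Alternatives changed the filter, the offset, the scaling, the variance prior, the choice of probe set, the pools and the block. Named genes were, in each comparison, up to 8 called members in each direction by size of change, the brightest member of each role, examples within a role, the members that match by letters only, and the 2 called genes with the largest change in each pathway list. The result of 1 further pathway list is not reported here. Myh9, Myl12b, Myl6, Coro1b, Coro1c against naive, Washc3, the myosins listed as not called, the dim members near the limit and the 3 neutrophil genes given singly were named after their values were seen. The members, lists, motifs and markers were chosen with earlier results of these data known, and 3 members (Washc2, Washc3 and Tubb2a-ps2) were given a role after their symbols were seen. The plots used matplotlib 3.10.9 under Python 3.11.15.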

Additional observations from a re-analysis of the deposited data

How the results depend on the processing

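Of the 16 poly IC calls, 11 held in all 11 alternatives (Was, Coro1a, Coro1c, Washc2, Myh9, Tpm1, Myo10, Myo1c, Myo1f, Myo7a and Plscr1). The remaining ones, Capzb, Myl12b, Tubb2a, Tubb5 and Tubb6, were each lost by eBayes without the trend, among other alternatives. Of the 4 ethanol calls over poly IC none held in all 12, and of the 14 against naive 4 did (Was, Coro1a, Myo10 and Plscr1). Where a call was lost the cause was not tested. The members called higher with poly IC numbered 3, and 5 with median-centred arrays, and 2 to 7 when each pool was left out in turn. Those called higher with ethanol over poly IC numbered 3, then 1 with no filter, 1 with median-centred arrays, 0 by eBayes without the trend, and 0 to 8 when each pool was left out. The member called lower there (1) became 0 without the trend and 0 to 5 when each pool was left out. Against naive, those higher with ethanol (3) numbered 3 to 8 when each pool was left out, and those lower (11) numbered 5 with no filter, 7 with median-centred arrays and 6 without the trend. With the group number as a replicate block, 5 members were called higher with ethanol over poly IC, Myo7a (0.59, adjusted p 0.0409) and Washc2 (0.71, adjusted p 0.0206) among them, but the numbers are not known to pair the pools. Signs turned only for differences that were not called. After quantile normalization, poly IC differences became -0.064 for Actg1, -0.17 for Tmsb4x, -0.37 for Cfl1, -0.28 for Arpc2, -0.39 for Msn and -0.23 for Tuba1c, and ethanol differences over poly IC became 0.090 for Cfl1, 0.059 for Arpc2 and 0.027 for Tuba1c. With each pool left out in turn, the poly IC difference ranged from -0.11 to 0.21 for Cfl1 and from -0.011 to 0.039 for Msn. The ethanol difference over poly IC ranged from -0.29 to 0.037 for Cfl1, from -0.24 to 0.016 for Tmsb4x and from -0.16 to 0.33 for Was, and that of Tubb6 against naive from -0.30 to 0.075. Offsets of 50 and 1000 in place of 250 changed 1 call among the named genes, Myo1c against naive at 50 (adjusted p 0.0806). The 34 members that were too dim to test limit what can be seen.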
